A study of Mus musculus with 4 samples.

Results

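The vesicle fusion genes of residual mouse β-cells were compared between animals labelled Bmal1 knockout (KO) and animals labelled Bmal1 heterozygous. The set was chosen by gene name from the deposited count table, with a minimum total count: SNARE proteins (syntaxins, the SNAP25 family and the VAMPs), SM proteins and other syntaxin-binding proteins, synaptotagmins, synaptotagmin-like effectors, complexins, RIMs, UNC13 priming factors, RAB3 and RAB27 GTPases, Napa, Nsf and Doc2b. Of 76 such symbols among 23420 rows, 69 had at least 15 counts over the libraries and form the set. The other 7 were left out. Syt8, Syt10, Unc13c and Vamp7 were listed at 0 in every library, and the remaining 3, Cplx4 and Stxbp3b among them, had 3 to 12 counts in all. The annotation used for coordinates places Vamp7 on a scaffold outside the assembled chromosomes, and whether its 0 means absent RNA was not tested. The study sequenced RNA of β-cells sorted by flow cytometry from mice in which most β-cells had been removed by 10 days of doxycycline. Both groups carried DTA, the diphtheria toxin A chain, together with either Bmal1KO or Bmal1+/-, so no library is from an unablated or Bmal1 wild-type mouse. Each group had 2 libraries, and the labels used here give no age, sex, promoter or Cre driver. Nothing in the labels says whether replicates came from separate animals, so p-values reflect library-to-library spread alone, and that spread may be technical.

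Insulin leaves the β-cell by fusion of dense-core granules with the plasma membrane. A VAMP on the granule zips together with a syntaxin and a SNAP25-family protein on the membrane, SM proteins hold and guide the syntaxin, UNC13 and RIM proteins prime the granule, complexins clamp the complex, and synaptotagmins couple fusion to calcium. RAB3 and RAB27 GTPases on the granule recruit effectors such as granuphilin, the product of Sytl4, which tether it at the membrane. NSF and its adaptor α-SNAP, the product of Napa, take used SNARE complexes apart.

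Totals were 32819576 and 31056116 counts in KO replicates 1 and 2, and 38020488 and 34776920 in heterozygous replicates 1 and 2. Levels are TMM-scaled CPM, which are counts relative to library size, as mean ± SD with n = 2, where 3 counts, the limit that a count of 0 allows, equal 0.0774 to 0.0936 CPM. Fold changes are KO over heterozygous with 95% intervals, and adjusted p-values come from the quasi-likelihood test of edgeR (Benjamini-Hochberg over 14649 genes, threshold 0.05). Markers of β-cells were abundant in every library, with Ins1 between 26703 and 39244 CPM. RNA of the targeted gene, Arntl, was higher in the libraries labelled KO, at 70.7 ± 7.22 against 19.0 ± 5.69 CPM (SD, n = 2 each). Counts over the whole gene do not show whether a deleted part is missing, so groups are called by their labels and higher or lower always refers to the KO label. KO replicate 1 stood apart in sex-linked RNA, with Xist at 8.67 CPM against 38.8, 72.3 and 67.5 CPM in KO replicate 2 and heterozygous replicates 1 and 2, and Ddx3y at 89.1 against 23.8, 20.5 and 12.1 CPM. Both Xist and the Y-linked Ddx3y were present in every library, so no library can be read as male or female alone.

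Of the 69 genes, 66 passed the filter on low counts and were tested. Rab3b rose, and the other 65 did not pass. That is 1.52% of the tested set, against 2.54% of all tested genes (1.20% higher and 1.34% lower). No member passed as lower in edgeR, where 3 were lower at an unadjusted p under 0.05, and 1 passed as lower by DESeq2 and 1 by limma-voom, in both cases Sytl4. Without an adjustment, 9 of 66 members had a p under 0.05, 13.6% against 16.9% of all tested genes. By direction, 6 were higher and 3 lower, beside 9.12% and 7.75% of all tested genes. KO and heterozygous values were separate for 32 members, 48.5% against 49.0% of all tested genes. Of these, 12 were higher and 20 lower, beside 25.2% and 23.8% of all tested genes. Counted over both directions together, calls and separated groups were thus not more frequent than among all genes. By direction, separated members leaned lower (20 lower, 12 higher), while among all tested genes 3485 were lower and 3696 higher. The median log2 fold change was -0.052, against 0.024 for all tested genes.

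**Figure D1:**
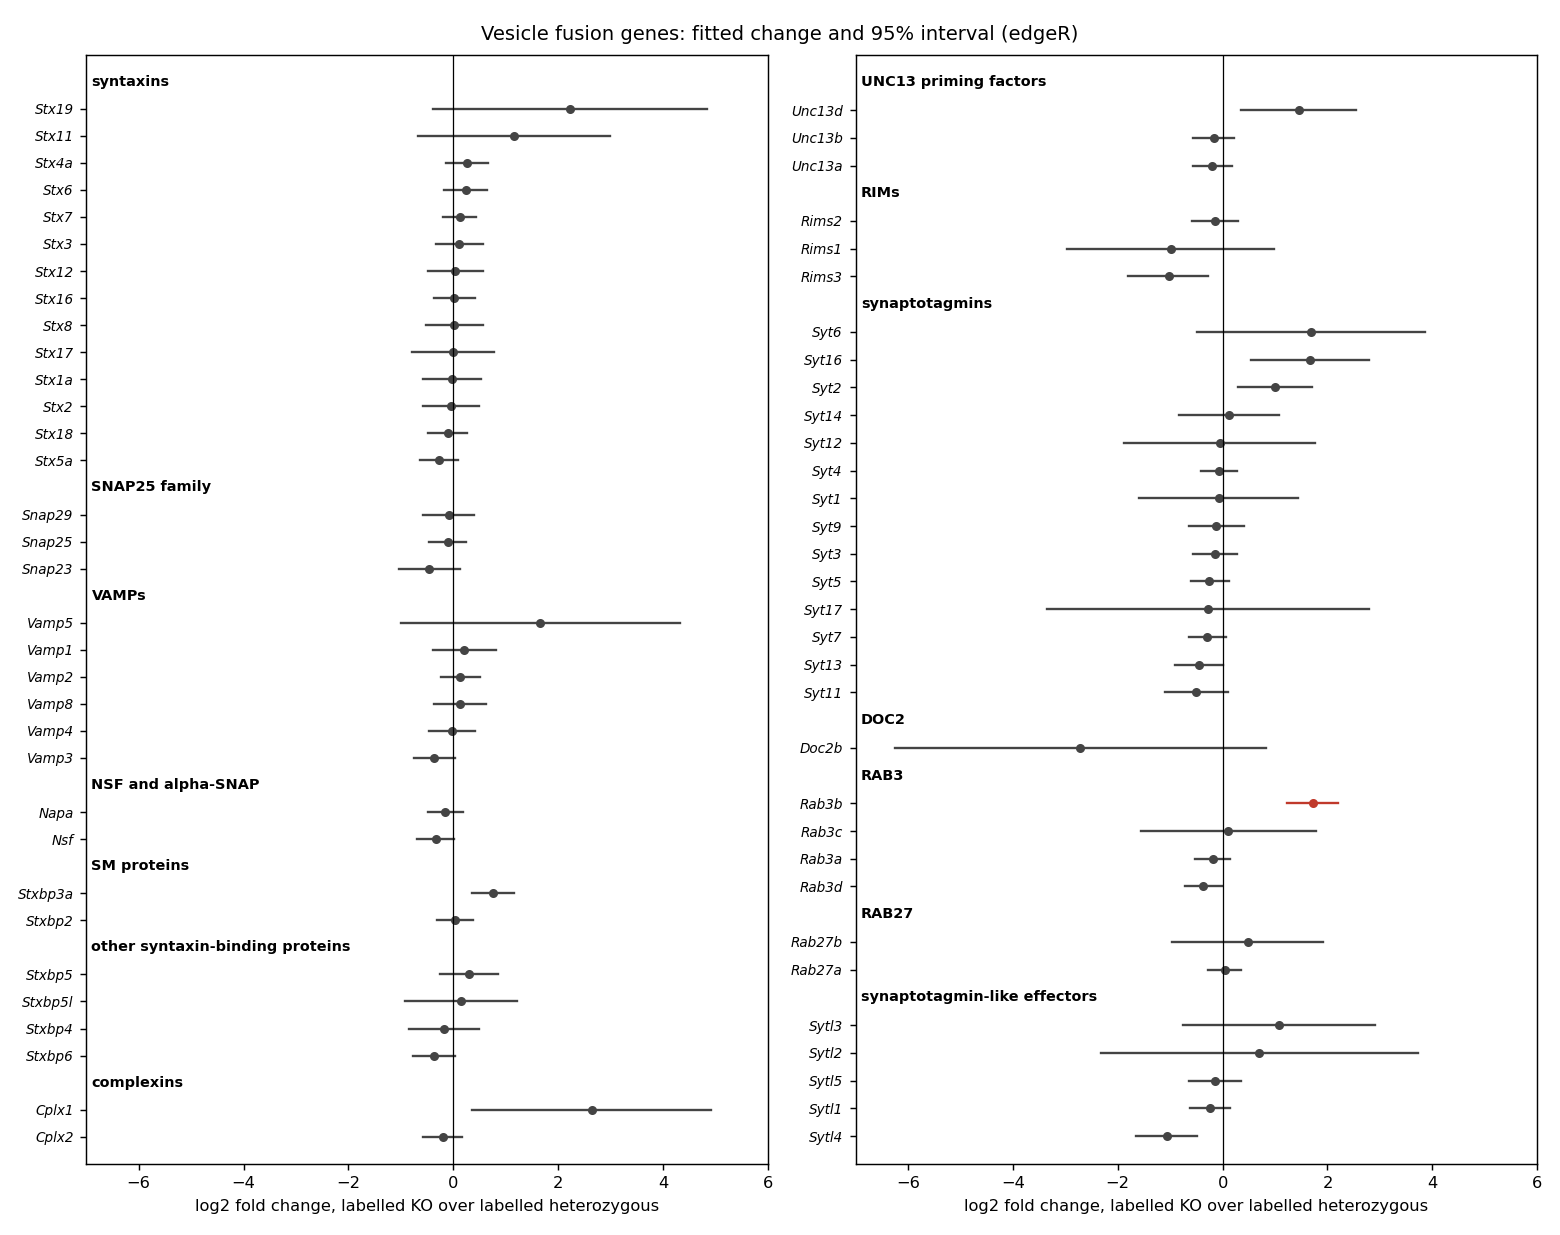
Fitted log2 fold change (points) with its 95% interval (lines) for 65 of the 66 tested vesicle fusion genes, grouped by family, from edgeR on 2 libraries per group. Rab3b, in red at 1.72, is the gene past the adjusted threshold, and the wide intervals belong to genes with low counts.

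Direction differed with the level of the gene. Of 48 members with a mean of 10 CPM or more, 32 had a lower level, 66.7% against 54.3% of all tested genes in that range, and the median was -0.12 against -0.033. Of the 21 members under 10 CPM, 18 were tested, and 5 of these were lower (27.8%, against 36.2% of tested genes in that range); their median was 0.85 against 0.29. 

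**Figure D2:**
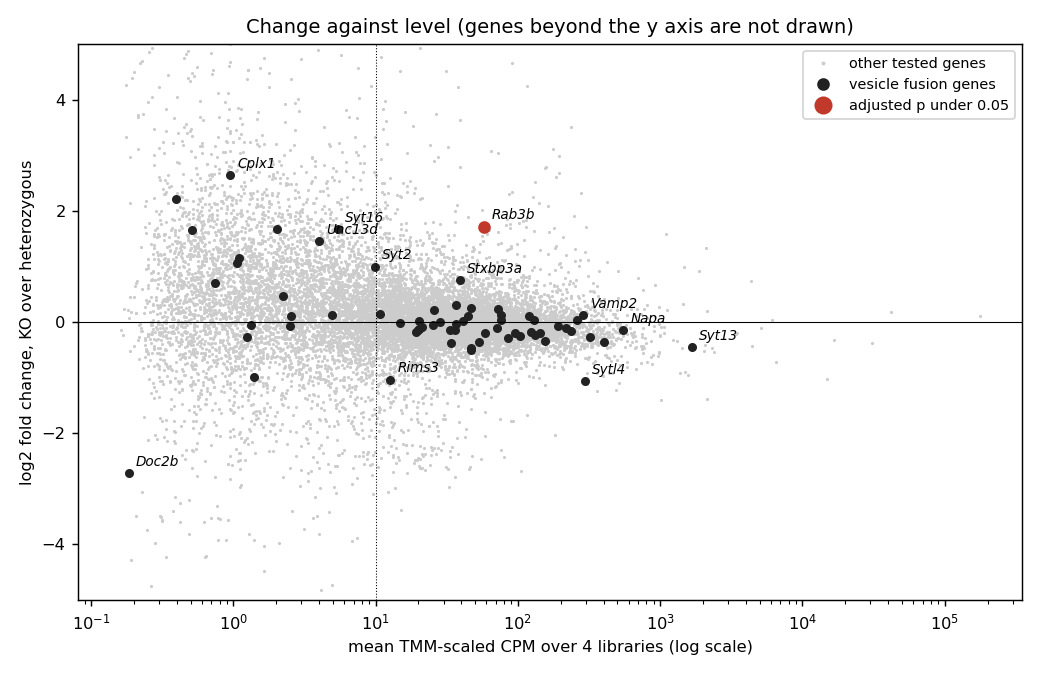
Log2 fold change (y axis) against the mean TMM-scaled CPM over the 4 libraries (x axis, log scale) for the vesicle fusion genes (black) and all other tested genes (grey). The dotted line marks 10 CPM; to its right 32 of 48 vesicle fusion genes lie below 0, with Rab3b (red) above and Sytl4 below the rest.

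The RAB3 family held the change that passed. Rab3b (chromosome 4, 108879063 to 108943324, plus strand, GRCm38), a GTPase of secretory vesicles, was at 102 and 76.1 CPM in KO replicates 1 and 2 and at 24.5 and 29.8 CPM in heterozygous replicates 1 and 2. Both libraries labelled KO lay well above both labelled heterozygous. The means were 89.2 ± 18.6 and 27.2 ± 3.71 CPM, a 3.29-fold higher level (interval 2.34 to 4.61, log2 fold change 1.72, SE 0.21, edgeR adjusted p = 0.0150). With heterozygous replicate 2 left out, Rab3b missed the threshold (1.85, adjusted p = 0.0633), and in the other 11 alternatives it passed. In bulk RNA such as this, more or fewer cells of a type and more or less RNA per cell cannot be told apart.

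Rab3d, the RAB3 gene with the highest level per exon length, went the other way. It was at 381 and 318 CPM against 460 and 440 CPM, and both KO libraries were below both heterozygous ones, yet it did not pass (log2 fold change -0.37, interval -0.71 to -0.019, adjusted p = 0.272). Rab3a, the main RAB3 gene of neurons, was at 138 and 131 against 147 and 160 CPM (-0.19, adjusted p = 0.562). Rab3c was rare, at 1.22 and 4.09 against 3.12 and 1.79 CPM, with overlapping groups. The make-up of the family can be read within each library, where scaling between libraries plays no part. Per exon length (RPKM), Rab3b made up 16.0% and 13.8% of the RAB3 sum in KO replicates 1 and 2, against 3.81% and 4.56% in heterozygous replicates 1 and 2. Rab3d took 49.9% and 48.5% against 60.0% and 56.6%. The sum itself was 182 and 156 against 183 and 185 RPKM, so the RAB3 total was not higher in the libraries with more Rab3b.

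Rab27a, the GTPase that recruits granuphilin to insulin granules, was level across libraries, at 131 and 133 against 126 and 132 CPM. Its interval of 0.823 to 1.28 as a fold excludes a change of 1.5-fold either way. It made up 99.2% to 99.7% of the RAB27 sum per length. Rab27b stayed between 1.24 and 2.87 CPM.

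Among the effectors that bind these GTPases, Sytl4, which encodes granuphilin, had the smallest p. It was at 140 and 242 CPM in KO replicates 1 and 2 and at 394 and 405 CPM in heterozygous replicates 1 and 2, so every KO library was below every heterozygous one while the KO libraries themselves lay far apart. The means were 191 ± 72.2 and 400 ± 7.94 CPM (log2 fold change -1.06, SE 0.25, interval -1.65 to -0.48, edgeR adjusted p = 0.0845), which did not pass. It passed in 6 of 12 alternatives, among them without KO replicate 1 (-0.75, adjusted p = 0.0393) and without KO replicate 2 (-1.51, adjusted p = 0.00468), fits in which the lone KO library is assumed to vary like the heterozygous pair. It did not pass without heterozygous replicate 1 (adjusted p = 0.164) or heterozygous replicate 2 (0.247). Sytl4 lies on chromosome X (133936385 to 133981812, minus strand), and its lowest library, KO replicate 1, was also the one with the lowest Xist and highest Ddx3y. Without that library the value was the -0.75 given above; Xist was also lower and Ddx3y higher in KO replicate 2 than in the heterozygous libraries, and the part of sex in the remaining difference was not tested. Sytl5, the other X-linked member, was at 18.1 and 19.7 against 19.7 and 22.2 CPM. Sytl1 was at 118 and 126 against 161 and 127 CPM, and Sytl2 and Sytl3 stayed under 2 CPM. Sytl4 held 33.2% and 44.5% of this family's sum per length in the KO libraries, against 51.5% and 56.8%, and the sum was 82.5 and 106 against 149 and 139 RPKM.

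**Figure D3:**
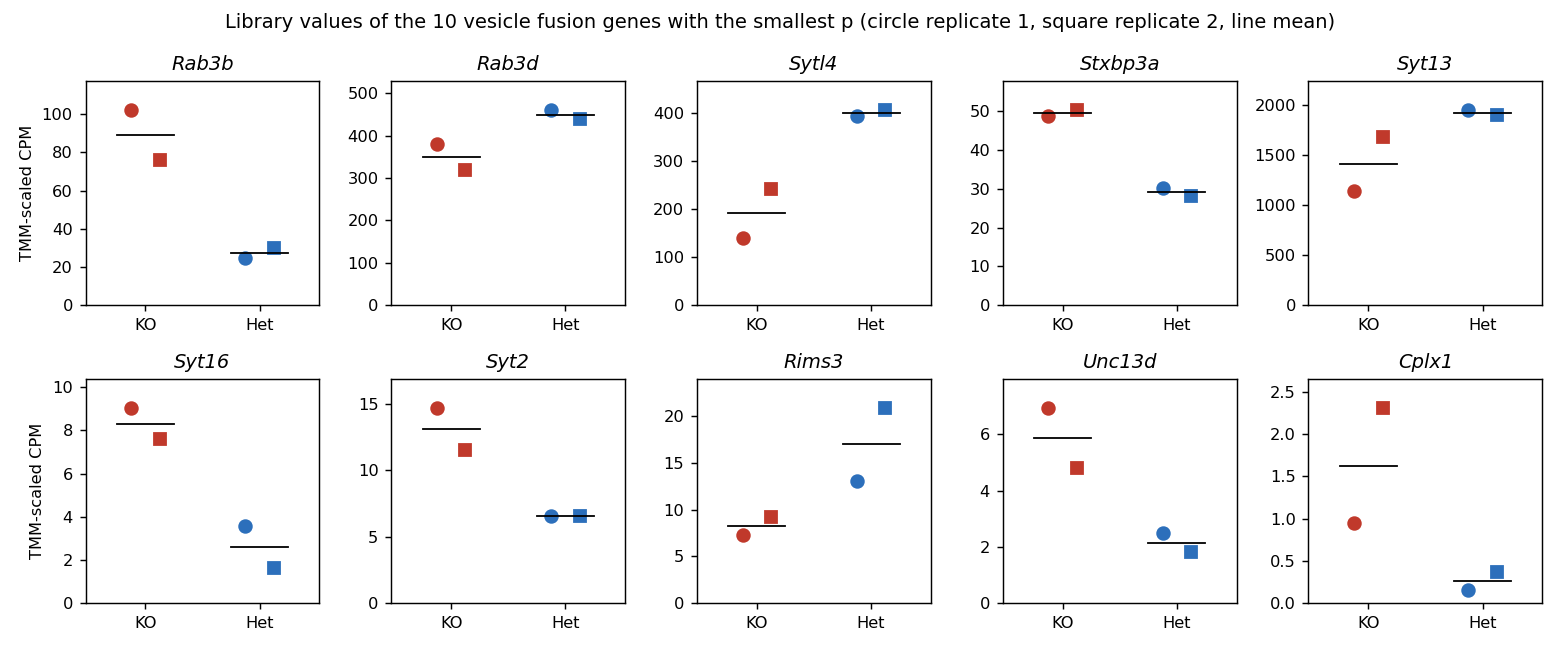
TMM-scaled CPM in each library (red labelled KO, blue labelled heterozygous, circles replicate 1, squares replicate 2, lines group means) for the 10 vesicle fusion genes with the smallest p. The groups do not overlap in any panel, which a choice by p from the same libraries favours. Sytl4, Syt13 and Rims3 show KO replicate 1 lowest.

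By their labels, the study's groups differ in the gene of a transcription factor that binds E-boxes with CLOCK. The sequence before the start site of these genes was therefore searched for the canonical E-box. RefSeq promoter sequences (GRCm38.p6) were matched for 53 of the 69 genes, and the 250 bases before each start site were searched for CACGTG, which reads the same on both strands. It was found for 10 of 53 genes, 18.9%, against 9.63% of tested genes with a promoter sequence. Per window it was in 17.2% of the members' 64, beside 6.02% of all 32851 listed promoters, which include those of genes that were not tested. The 10 were Cplx3, Napa, Nsf, Rab27a, Stx6, Stxbp2, Syt14, Syt6, Unc13b and Vamp4. Of the 9 tested, 5 were higher and 4 lower; their median was 0.029 on the log2 scale, and 0 passed in edgeR, DESeq2 or limma-voom or had an unadjusted p under 0.05. A related form, CACGTT or its reverse complement AACGTG, was in the windows of Cplx1 and Unc13a, 3.77% of the 53 against 5.26% of tested genes. The sequences of the called gene, of Sytl4 and of 2 genes with E-boxes are shown 5′ to 3′ on the strand of the gene, with CACGTG in capitals. They end before the first annotated transcribed base.
Rab3b (chr4:108878820-108879062, plus strand): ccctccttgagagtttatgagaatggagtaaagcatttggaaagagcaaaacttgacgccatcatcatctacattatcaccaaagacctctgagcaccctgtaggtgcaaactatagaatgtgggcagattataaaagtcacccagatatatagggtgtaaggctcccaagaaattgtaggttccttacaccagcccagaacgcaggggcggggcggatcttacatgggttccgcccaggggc
Sytl4 (chrX:133981813-133982062, minus strand): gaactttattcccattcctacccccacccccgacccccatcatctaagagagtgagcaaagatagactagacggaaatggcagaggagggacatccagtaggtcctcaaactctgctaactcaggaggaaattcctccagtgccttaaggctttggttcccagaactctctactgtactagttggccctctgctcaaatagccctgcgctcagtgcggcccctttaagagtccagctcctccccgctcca
Napa (chr7:16098330-16098457, plus strand): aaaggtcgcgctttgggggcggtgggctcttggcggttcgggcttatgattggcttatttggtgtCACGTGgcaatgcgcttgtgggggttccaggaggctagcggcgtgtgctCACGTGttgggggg
Nsf (chr11:103954057-103954306, minus strand): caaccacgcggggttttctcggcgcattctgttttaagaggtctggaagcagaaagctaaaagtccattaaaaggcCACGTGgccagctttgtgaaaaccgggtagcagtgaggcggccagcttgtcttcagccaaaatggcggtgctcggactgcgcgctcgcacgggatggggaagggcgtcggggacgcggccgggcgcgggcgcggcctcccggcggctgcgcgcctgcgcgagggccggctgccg
Neither Rab3b nor Sytl4 holds the motif in this window. Napa holds it 3 times, with first bases 185, 136 and 29 before the RefSeq start site, of which the first 2 lie in the part shown, and Nsf holds it once, at 174. A match or its absence describes these letters only.

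The core fusion machinery showed small differences. Vamp2, the main granule VAMP, was at 327 and 274 CPM in KO replicates 1 and 2 and at 294 and 256 CPM in heterozygous replicates 1 and 2, with overlapping groups (1.09-fold, interval 0.849 to 1.41). Snap25, its partner on the plasma membrane, was at 224 and 198 against 243 and 209 CPM (0.931-fold, interval 0.728 to 1.19). Stx1a, the classical syntaxin of granule fusion, was at 14.3 and 14.9 against 15.3 and 14.4 CPM (0.982-fold, interval 0.668 to 1.44). These 3 belong to the 22 members whose interval lay within 1.5-fold either way. All 22 were at 10 CPM or more, where they make up 22 of 48 members and where 2913 of 9238 tested genes had such an interval; over all tested genes the share was 19.9%.

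Of 14 syntaxins, 9 were at a higher and 5 at a lower level, and none passed or had an unadjusted p under 0.05 in edgeR (0 also by DESeq2 and limma-voom). Their median was 0.028 on the log2 scale. Stx5a, a syntaxin of traffic between ER and Golgi, had the highest level per length, at 50.2 RPKM in the KO and 60.5 RPKM in the heterozygous libraries, while Stx1a was at 5.47 and 5.57 RPKM. Stx4a, a plasma membrane syntaxin that also takes part in insulin release, was at 48.8 and 52.8 against 45.7 and 39.5 CPM (0.26, interval -0.14 to 0.66). Stx3 was at 51.6 and 40.5 against 44.6 and 40.6 CPM. Stx12 (60.4 and 94.1 CPM) and Stx17 (37.5 and 18.9 CPM) varied more between the KO libraries than between the groups. In the SNAP25 family, Snap23, the form found in most cell types, was at 30.3 and 47.8 against 48.6 and 59.0 CPM (-0.46, interval -1.04 to 0.12). Snap25 made up 60.6% to 72.4% of that family's sum per length, with overlapping groups.

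Among the VAMPs, Vamp3, the form of constitutive and recycling traffic, was at 43.1 and 50.9 against 58.2 and 62.1 CPM, without overlap and without passing (-0.36, interval -0.75 to 0.036, adjusted p = 0.342). Vamp8, which serves regulated release in exocrine cells and newcomer granules in β-cells, was at 92.9 and 67.4 against 64.0 and 82.1 CPM. Vamp2 made up 49.7% to 57.1% of the VAMP sum per length. Vamp1 and Vamp4 overlapped between groups too. Of the disassembly machinery, Nsf was at 126 and 149 against 171 and 178 CPM (-0.34, interval -0.70 to 0.0069, adjusted p = 0.305), and Napa, at 485 and 561 against 606 and 552 CPM, had the second-highest level per length of all members, at 138 and 153 RPKM.

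Among the SM proteins, Stxbp3a had the smallest p. Stxbp3a, listed as Stxbp3 in current annotation (chromosome 3, 108793176 to 108840526, minus strand), encodes the SM protein that binds the syntaxin of Stx4a. It was at 48.7 and 50.2 CPM in the KO libraries and at 30.3 and 28.1 CPM in the heterozygous ones, with replicates close together and groups clearly apart. The 1.69-fold difference (interval 1.29 to 2.23, log2 fold change 0.76, SE 0.17, edgeR adjusted p = 0.0716) did not pass, and it passed in 3 of 12 alternatives. Reads of its processed pseudogene, Stxbp3b in the table, were at most 3 in a library, and how reads shared by both were assigned is not given. Stxbp2 was at 262 and 260 against 277 and 235 CPM. Stxbp2 had overlapping groups (interval -0.31 to 0.37 on the log2 scale). Of the other syntaxin-binding proteins, Stxbp6, which encodes amisyn, a SNARE-like inhibitor of fusion, was at 30.3 and 29.3 against 37.6 and 39.3 CPM (-0.37, interval -0.77 to 0.037). The tomosyn genes Stxbp5 and Stxbp5l and the gene Stxbp4 overlapped between groups.

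**Figure D4:**
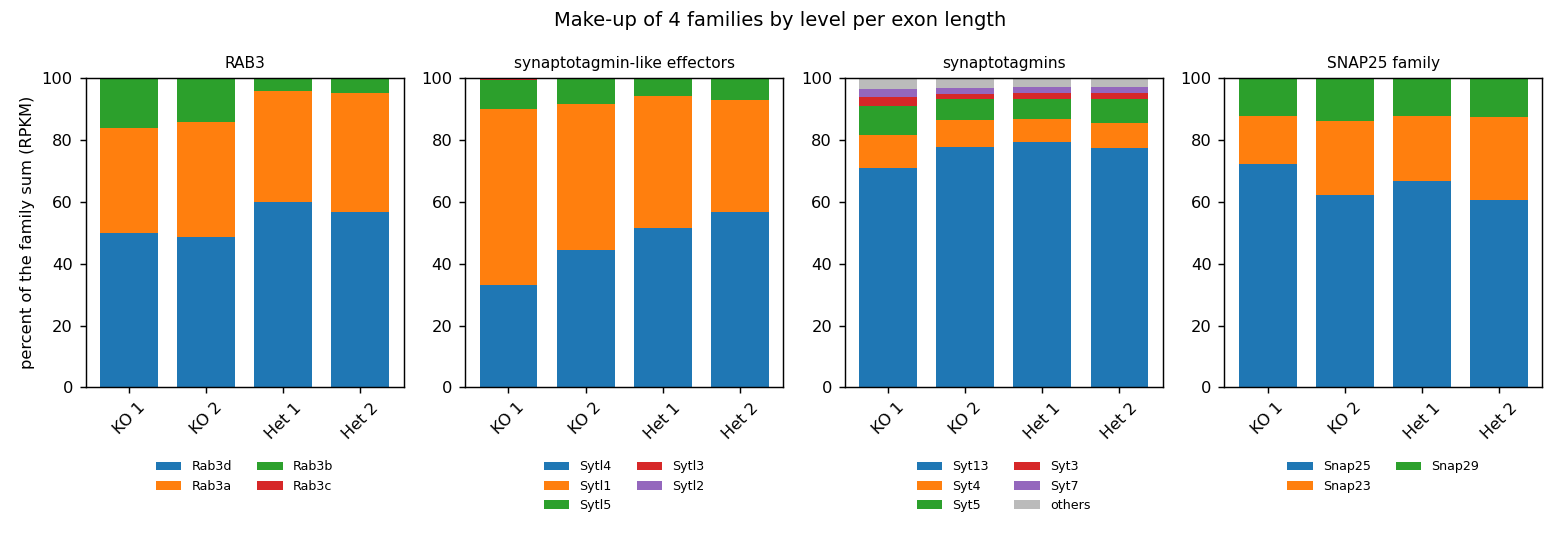
Percent of a family's summed level per exon length (RPKM, y axis) held by each gene in each library, for 4 families; grey collects synaptotagmins beyond the 5 with the highest level. Rab3b takes 16.0% and 13.8% of the RAB3 sum in the KO libraries against 3.81% and 4.56%, and Sytl4 the smaller share of its family there.

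Syt13 dominated the synaptotagmins and had the highest level per length of all 69 genes, at 376 RPKM in the KO and 512 RPKM in the heterozygous libraries. Its protein lacks the residues that bind calcium in classical synaptotagmins. It was at 1141 and 1685 CPM in KO replicates 1 and 2 and at 1951 and 1904 CPM in heterozygous replicates 1 and 2. Both KO libraries were lower, with KO replicate 1 far below the rest (log2 fold change -0.45, SE 0.19, interval -0.90 to 0.0082, edgeR adjusted p = 0.304). Without KO replicate 2 it passed, at -0.76 with an adjusted p of 0.0189, and without KO replicate 1 the value was -0.22. Syt11, another synaptotagmin that does not bind calcium, was also lowest in KO replicate 1 and higher in both heterozygous libraries, at 29.1 and 48.5 against 52.5 and 57.1 CPM, and likewise passed without KO replicate 2 (-0.92, adjusted p = 0.0462). Those fits set 1 KO library, the lowest one, against 2 heterozygous ones; the lone library is assumed to vary like the heterozygous pair.

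The calcium sensors of insulin granules were closer between groups. Syt7 was at 82.8 and 70.3 against 93.9 and 92.8 CPM (0.820-fold, interval 0.640 to 1.05), with no overlap. Syt9 was at 18.2 and 20.3 against 22.9 and 19.0 CPM, with overlap (0.918-fold, interval 0.641 to 1.32). Syt5 was at 96.2 and 92.5 against 102 and 122 CPM, and Syt3 at 36.8 and 31.9 against 37.9 and 38.3 CPM. Syt4, which in β-cells is known to lower the calcium sensitivity of release as they mature, was at 176 and 200 against 187 and 207 CPM (0.954-fold, interval 0.753 to 1.21). Summed over the family, the level was 427 and 577 against 653 and 653 RPKM, and Syt13 made up 71.1% to 79.4% of it. Doc2b, a related calcium sensor, had 3 and 0 counts in the KO and 12 and 11 in the heterozygous libraries (adjusted p = 0.429), levels at which no fold is given.

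None of the UNC13, RIM or complexin genes passed in edgeR, DESeq2 or limma-voom; Unc13d and Cplx1 were higher and Rims3 lower at an unadjusted p under 0.05. Unc13a was at 97.0 and 79.7 against 99.9 and 103 CPM (0.871-fold, interval 0.674 to 1.12) and Unc13b at 107 and 126 against 119 and 144 CPM (0.886-fold, interval 0.675 to 1.16). Rims2, the main RIM gene of β-cells and the highest of the RIMs per length, was at 30.0 and 33.0 against 32.1 and 37.8 CPM, with overlap. Rims3, which encodes a short RIM without the RAB-binding part, was at 7.33 and 9.24 against 13.1 and 20.9 CPM (-1.03, interval -1.80 to -0.27, adjusted p = 0.170). Rims1 was at 0.396 and 1.47 against 1.83 and 1.88 CPM. Cplx2 made up 90.0% to 98.7% of the complexin sum per length and was at 58.6 and 51.2 against 61.1 and 65.1 CPM (0.870-fold, interval 0.671 to 1.13).

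The members under 10 CPM included several that were higher in both libraries labelled KO. Syt16 was at 9.04 and 7.58 against 3.56 and 1.63 CPM (log2 fold change 1.67, interval 0.55 to 2.80, adjusted p = 0.140), and Syt2, a fast calcium sensor of neurons, at 14.7 and 11.5 against 6.58 and 6.57 CPM (log2 interval 0.30 to 1.70, adjusted p = 0.153). Unc13d, a priming factor of blood cells, was at 6.94 and 4.81 against 2.48 and 1.82 CPM (1.45, interval 0.36 to 2.54, adjusted p = 0.174). Cplx1 had 31 and 74 counts against 6 and 12 (2.64, interval 0.36 to 4.92, adjusted p = 0.229). None of these 4 passed in edgeR or limma-voom, and Syt16 passed in DESeq2. Stx11, Stx19, Syt6 and Sytl3, at 0.396 to 4.28 CPM in the KO libraries, were also above both heterozygous libraries. That made 8 of the 18 tested members under 10 CPM, beside 1733 of 5411 tested genes in that range. Syt1, Syt12, Syt14, Syt17, Vamp5 and Sytl2 overlapped. Syt15, Cplx3 and Rims4 were not tested, and Syt15 had 25 counts in KO replicate 1 and 0 in the other libraries.

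Summed markers of most other cell types were higher in the same libraries. The duct sum was lower, while its single markers went both ways. The 21 low members summed to 53.4 and 55.2 CPM in KO replicates 1 and 2 and to 33.8 and 29.5 CPM in heterozygous replicates 1 and 2. All tested genes under 10 CPM also summed higher there, to 18558 and 18998 against 16525 and 15969 CPM. Acinar markers summed to 174 and 84.5 against 66.7 and 24.6 CPM (8 of 9 tested had a higher level), with Amy2a5 at 0 in every library. Endothelial markers summed to 39.3 and 17.8 against 14.3 and 11.0 CPM (4 of 4 tested), stromal markers to 138 and 383 against 66.7 and 25.5 CPM (8 of 9) and immune markers to 167 and 603 against 137 and 138 CPM (9 of 9). Markers of other islet cells summed to 4201 and 8777 against 3644 and 3402 CPM (6 of 8), those of neurons and Schwann cells to 139 and 145 against 107 and 96.0 CPM (6 of 7), and those of duct to 1007 and 956 against 1234 and 1312 CPM (4 of 8). Of the β-cell markers, 8 of 10 had a lower level and Ucn3, G6pc2 and Slc30a8 fell, 30.0% against 2.54% of all tested genes. Their sum overlapped between groups, at 273997 and 235194 against 217610 and 276589 CPM, and Ins2 and Iapp were not lower. In the other lists, Irx2 of islet cells, the stromal Col1a2, Lum and Pdgfra, the immune Fcer1g and the neuronal Tubb3 passed as higher. No acinar, duct or endothelial marker passed. Syt16, Syt2 and Unc13d had the same order of libraries as the acinar and endothelial sums. Esam, at 20.7 and 12.8 against 12.9 and 8.23 CPM, led the endothelial sum. The immune, stromal and other islet sums were highest in KO replicate 2. There Syt16, Syt2, Unc13d and Rab3b were lower than in KO replicate 1, and Cplx1, Syt6 and Stx19 were higher. Single markers did not all follow their sum. Gcg and Ppy were highest in KO replicate 2, but Irx2 was at 21.9 and 12.7 against 2.30 and 3.27 CPM, the order of Rab3b. The part of other cells in these values was not tested.

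**Figure D5:**
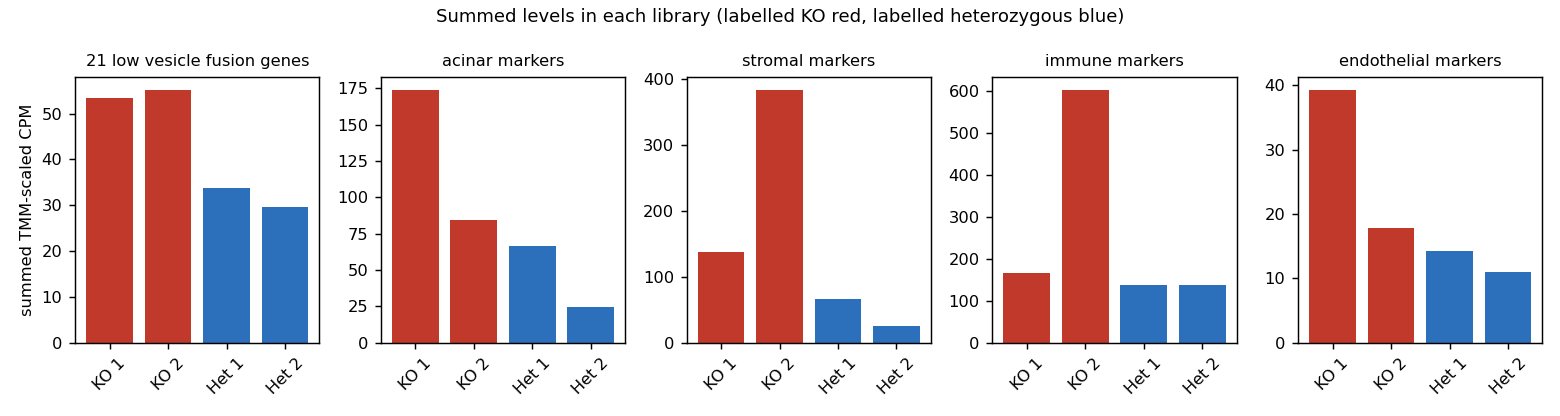
Summed TMM-scaled CPM (y axis, each panel on its own scale from 0) in each library for the 21 vesicle fusion genes under 10 CPM and for the marker lists of 4 other cell types. The low vesicle fusion genes are at 53.4 and 55.2 CPM in the KO libraries against 33.8 and 29.5. Each of these 4 marker lists is higher in both KO libraries too, as is the sum of all tested genes under 10 CPM, not drawn. The duct list, also not drawn, has a lower sum in both, at 1007 and 956 against 1234 and 1312 CPM. Of its 8 tested markers, 4 had a higher level.

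Genes of the same pathway outside the set were counted in 4 lists, of which 1 of 78 tested genes passed, 1.28% against 2.54% of all tested genes. At an unadjusted p under 0.05 there were 16 of 78, 20.5% against 16.9% of all tested genes. Of 28 tested genes of the active zone, docking and RAB regulation, Rimbp2 fell and 27 did not pass; the list's median was 0.10 on the log2 scale. Rimbp2 encodes a protein that links RIMs to calcium channels; it was at 62.8 and 67.8 against 112 and 107 CPM, groups far apart and replicates close (-0.75, SE 0.14, edgeR adjusted p = 0.0481). Rimbp2 missed the threshold without KO replicate 1 (adjusted p = 0.0708), heterozygous replicate 1 (0.249) or heterozygous replicate 2 (0.237) and with library sizes alone (0.0749). Of 9 exocyst genes, which tether vesicles, 0 passed in edgeR or limma-voom and 1 was higher at an unadjusted p under 0.05 and by DESeq2. That gene was Exoc7, at 123 and 108 against 77.8 and 77.2 CPM (0.58, adjusted p = 0.105), and Exoc2 followed at 54.8 and 55.2 against 48.0 and 46.7 CPM. Of 22 other SNAREs, SM proteins and chaperones, 0 passed in edgeR or limma-voom, 2 were higher and 2 lower at an unadjusted p under 0.05, 1 was lower by DESeq2, and the median was -0.16. Scfd1, the SM protein of ER and Golgi traffic, was at 271 and 290 against 386 and 371 CPM (-0.43, adjusted p = 0.166), and Snapin, whose exons overlap those of Ilf2, at 65.0 and 52.4 against 43.0 and 39.9 CPM (0.50, adjusted p = 0.215). Of 19 tested vesicle proteins 0 passed in edgeR, 5 were higher and 1 lower at an unadjusted p under 0.05, 1 was higher and 1 lower by DESeq2 and 1 higher by limma-voom. Sv2b, a vesicle glycoprotein, was at 18.8 and 18.9 against 1.60 and 5.11 CPM (2.50, interval 1.26 to 3.73, adjusted p = 0.0625) and passed in 7 of 12 alternatives, and Esyt1 was at 89.0 and 112 against 152 and 147 CPM (-0.58, adjusted p = 0.132).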

How the data were processed

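RNA of FACS-sorted mouse β-cells was measured in 4 libraries, 2 per label; per the labels' protocols the kit was SMART-Seq v4. The authors deposited read counts per gene symbol without normalization, and these counts were used for every test. STAR, edgeR and mm10 appear in the submitters' processing notes without a role. The counter, strand setting and annotation are not stated in the labels or headers. A second table of the same libraries, scaled, was left out.

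Genes were kept by filterByExpr (at least 10 counts, total at least 15). TMM factors and the quasi-likelihood test of edgeR 4.0.16 under R 4.3.3 (glmQLFit and glmQLFTest, 2-sided) compared the labels, with no covariate. SE was taken as the log2 fold change over the root of the F statistic. Intervals and floors cover this spread or counting error only. The members and lists were chosen with earlier results of these data known. Full values are given for members past the threshold, the 10 with the smallest p, a list of insulin granule release genes, the highest of each family per length, and of each pathway list the genes past the threshold or else 2 with the smallest p. The procedure was tested on simulated data. Alternatives were other scalings, other filters, DESeq2 1.42.0, limma-voom (limma 3.58.1), a replicate block and leaving out each library.

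Coordinates and exon lengths are from GENCODE M21 (GRCm38) for all 69 members. Exons of 7 members (Rab3a, Snap29, Stx18, Stx4a, Syt6, Sytl3 and Unc13a) overlap another gene, and counts without strand cannot separate these. Replicates differed by more than sampling noise (chi-square per degree of freedom 63.9 for the KO and 42.9 for the heterozygous label). Some members are counted but not reported here by name.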

Additional observations from a re-analysis of the deposited data

How the results depend on the processing

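With 2 libraries per group, an exact permutation of a single value cannot go below 0.333, so calls rest on the spread shared across genes. Vesicle fusion genes past the threshold numbered 1 higher and 0 lower. They numbered 2 and 1 with no filter, 2 higher at a mean of 5 CPM or more, and 3 and 1 by DESeq2, and 1 was lower by limma-voom. Leaving out a library gave 0 to 1 higher and 0 to 3 lower; Rab3b was lost without heterozygous replicate 2. Over all genes, 176 higher and 196 lower became 430 and 378 with no filter, 266 higher at a mean of 5 CPM or more and 619 and 560 by DESeq2, and ranged from 17 to 404 higher and 8 to 422 lower when a library was left out, both lowest without heterozygous replicate 2. The cause was not tested. Fewer samples enter those fits.

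The replicate numbers were not shown to pair the libraries (correlation of deviations -0.0189). With the replicate block 313 genes were higher over all genes and 1 vesicle fusion gene was lower, Sytl4 (-1.12, adjusted p = 0.0191); Rab3b passed with and without the block.

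Genes with a value near 0 changed sign without changing a call. Stx1a was at 0.019 with library sizes alone and 0.012 at a mean of 5 CPM or more, and Rab3c at -0.11 by limma-voom and -0.071 with the replicate block. Leaving out a library gave ranges of -0.22 to 0.0044 for Snap25, -0.078 to 0.01 for Stx1a, -0.10 to 0.27 for Stx3, -0.028 to 0.25 for Vamp2, -0.14 to 0.34 for Vamp8, -0.10 to 0.15 for Stxbp2, -0.26 to 0.012 for Syt9, -0.081 to 0.33 for Syt14 and -1.01 to 0.71 for Rab3c.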
